A study of Mus musculus with 6 samples.

Results

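The genes described here are 34 genes of the HIF pathway and of the response to low oxygen. The list was set by name, with earlier results of these data known. All 34 occur among the 26754 genes of the deposited tables. They were read in RNA from cells taken with CD8a magnetic beads, which bind CD8a, a surface protein of cytotoxic T cells, out of B16 tumours. B16 is a mouse melanoma line, here injected under the skin of female C57BL/6J mice aged 6 to 8 weeks. The 2 groups are day 14 and day 7 after injection, with 3 libraries each, and neither group carried an engineered allele or received a drug according to the labels. Nothing in the labels ties a library to 1 animal, so the p-values rest only on spread between these samples, which may be technical. That spread was modelled across genes, so an SE can be smaller than a gene's own values give.

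HIF is a transcription factor made of an alpha chain, encoded by Hif1a or Epas1, and a beta chain encoded by Arnt. In the presence of oxygen, prolyl hydroxylases of the Egln family mark the alpha chain, the VHL ubiquitin ligase binds the mark, and the protein is destroyed, while the asparaginyl hydroxylase encoded by Hif1an blocks its coactivator contact. When oxygen falls, the alpha chain accumulates and binds short DNA elements near genes of blood vessel growth, glycolysis, acid export, collagen maturation and mitochondrial turnover. The alpha chain is controlled mainly as a protein, so its RNA level says little about its activity. Solid tumours such as melanoma contain poorly supplied zones, and both tumour cells and the immune cells within them are known to use this pathway.

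The DNA element of HIF has the core ACGTG or GCGTG, and the promoters of the members are shown because the list is joined by this factor. RefSeq promoter windows of the build GRCm38.p6, from 250 bases before to 50 bases after a RefSeq transcript start, were found for 29 of the 34 members. The start lay within 100 bases of the 5′ end of the deposited gene model in 25 of them, the 5 shown included, and farther inside the model for Hif1a, P4ha2, Higd1a and Ankrd37. Bnip3l, Epas1, Ero1l, Ndrg1 and Plod2 had no entry. Below, 4 members that rose on day 14 are followed by Egln2, which had no call and many matches. They are written 5′ to 3′ on the strand of the gene, and capitals mark a core on either strand, read as CACGT or CACGC on the opposite one. The windows are chr7:138909457-138909756 (minus strand), chr4:43506776-43507075 (plus), chr7:110627407-110627706 (plus), chr2:71872974-71873273 (plus) and chr7:27166753-27167052 (minus).
Bnip3: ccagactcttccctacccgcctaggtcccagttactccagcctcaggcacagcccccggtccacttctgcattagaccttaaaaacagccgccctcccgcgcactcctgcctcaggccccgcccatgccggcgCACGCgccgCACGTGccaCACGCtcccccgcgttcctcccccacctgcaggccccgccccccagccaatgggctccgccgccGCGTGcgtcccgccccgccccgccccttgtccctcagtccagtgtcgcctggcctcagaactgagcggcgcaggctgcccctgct
Car9: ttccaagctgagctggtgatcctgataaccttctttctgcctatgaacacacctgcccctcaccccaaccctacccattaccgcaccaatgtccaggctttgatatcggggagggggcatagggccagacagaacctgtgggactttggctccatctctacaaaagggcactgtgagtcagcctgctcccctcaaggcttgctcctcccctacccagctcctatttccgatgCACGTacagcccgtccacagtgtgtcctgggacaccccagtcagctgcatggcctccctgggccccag
Adm: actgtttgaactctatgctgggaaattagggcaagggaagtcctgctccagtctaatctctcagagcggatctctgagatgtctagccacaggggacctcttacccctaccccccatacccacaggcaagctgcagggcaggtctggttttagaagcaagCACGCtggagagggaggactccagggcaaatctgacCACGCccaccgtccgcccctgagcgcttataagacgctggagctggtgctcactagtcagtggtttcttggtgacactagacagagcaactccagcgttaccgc
Pdk1: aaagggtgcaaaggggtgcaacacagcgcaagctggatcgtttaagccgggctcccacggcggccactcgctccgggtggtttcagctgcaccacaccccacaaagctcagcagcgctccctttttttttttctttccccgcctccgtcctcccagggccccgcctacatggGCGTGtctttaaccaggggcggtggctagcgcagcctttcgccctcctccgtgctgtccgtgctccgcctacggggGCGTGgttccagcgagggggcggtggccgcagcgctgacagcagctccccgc
Egln2: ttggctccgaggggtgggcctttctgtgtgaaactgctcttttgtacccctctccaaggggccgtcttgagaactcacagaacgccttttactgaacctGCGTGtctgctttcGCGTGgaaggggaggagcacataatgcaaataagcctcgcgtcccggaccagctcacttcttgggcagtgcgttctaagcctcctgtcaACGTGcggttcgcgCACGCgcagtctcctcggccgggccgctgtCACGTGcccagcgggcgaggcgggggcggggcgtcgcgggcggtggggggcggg

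The Bnip3 window held 5 matches, in a cluster between 117 and 99 bases before the start and 1 at 35 bases before it, and the palindrome CACGTG counts as 2 because it reads ACGTG on both strands. The Car9 window held 1 match, 18 bases before the start, and those of Adm and Pdk1 held 2 each. Egln2, Fam162a and Wsb1, without a call, held 6 matches each. No match was in the windows of Vegfa and Mxi1, which rose, of Hif1an, Gys1, Gbe1 and Insig2, which gave no call, or of Vhl and Car12, which were not tested. A match was present in 7 of 9 windows of members that rose (77.8%) and in 9 of 13 windows of tested members without a call (69.2%). Across all tested genes with a window it was present in 3353 of 5071 (66.1%). At least 2 matches were present in 55.6%, 61.5% and 37.3% of these 3 sets. These shares describe letters in a window, not binding.

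Values are RPKM, the reads of a gene divided by its length and by all reads in genes of the library, so levels can be compared between genes. Libraries held 11385106 to 13316522 reads in genes on day 14 and 6523019 to 9313078 on day 7. With 2 reads taken as 1 fragment, day 7 replicates 1 and 2 differed by little more than sampling noise (median chi-square ratio 1.11, mean 1.63, where 1 is noise alone), against 40.9 and 44.4 between them and replicate 3 and 4.05 to 4.43 within day 14. Counted per read, all these ratios would be larger. Not all low read numbers were even, so the fragment unit is approximate. Day 7 replicates 1 and 2 entered as their mean, so n = 3 on day 14 and n = 2 on day 7. A gene was tested with limma on log2(RPKM + 1) where its mean reached 20 CPM (reads scaled to the library total, without length), and it was called at a Benjamini-Hochberg adjusted p under 0.05 over all 6691 genes tested. Fold changes on this scale understate the change of low genes. Of the genes tested, 430 rose (6.43%) and 241 fell (3.6%), while under median-of-ratios scaling 199 were called higher and 329 lower. The median gene had a log2 fold change of 0.16 in the fit used and of -0.015 under that scaling.

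The RNA was not that of T cells alone. The summed level of 10 markers of CD8 T cells was 133 to 139 RPKM on day 14 and 517 to 538 RPKM on day 7, with all 10 detected and 6 of the 8 tested lower. Cd5, under the filter, went the other way, with means of 2.74 RPKM on day 14 and 2.20 RPKM on day 7. The sum of 8 melanocyte genes, all detected, was 10500 to 11500 RPKM on day 14 and 5710 to 5930 RPKM on day 7, most of it Dct. Of these 8 genes, 4 rose. The other 4 gave no call, with log2 fold changes of -0.14 for Mitf, 0.16 for Slc45a2, 0.17 for Pmel and 0.57 for Sox10. The sum of 8 macrophage genes was 265 to 271 RPKM on day 14 and 131 to 190 RPKM on day 7, and 3 of the 8 rose. The list was split, as Fcgr1, Adgre1 and C1qc had log2 fold changes of -0.54, -0.27 and -0.05, without a call. Fcgr1 was below day 7 in every day 14 library. Neutrophil genes summed to 50.2 to 65.3 RPKM on day 14 and 12.7 to 17.4 RPKM on day 7. Most of the day 14 sum was S100a9, with means of 41.7 RPKM on day 14 and 6.79 RPKM on day 7. S100a8 had means of 4.46 and 4.39 RPKM, and Csf3r, the 1 gene tested, gave no call. Cxcr2, Ly6g and Retnlg had no reads on day 7 and means of 1.11, 0.0622 and 1.22 RPKM on day 14. Fibroblast genes summed to 1.22 to 1.64 RPKM on day 14 and 1.42 to 2.09 RPKM on day 7, and endothelial genes to 4.69 to 5.10 RPKM on day 14 and 4.34 to 7.87 RPKM on day 7. Natural killer genes summed to 15.6 to 18.1 RPKM on day 14 and 123 to 160 RPKM on day 7, with 3 of 4 tested lower, and B cell genes to 1.39 to 1.76 RPKM on day 14 and 2.69 to 5.66 RPKM on day 7. Of the B cell genes, all under the filter, Cd79a went the other way, with means of 0.394 RPKM on day 14 and 0.138 RPKM on day 7. The part of these shifts in the results below was not tested, and in bulk RNA fewer cells of a type and less RNA per cell cannot be told apart.

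**Figure D1:**
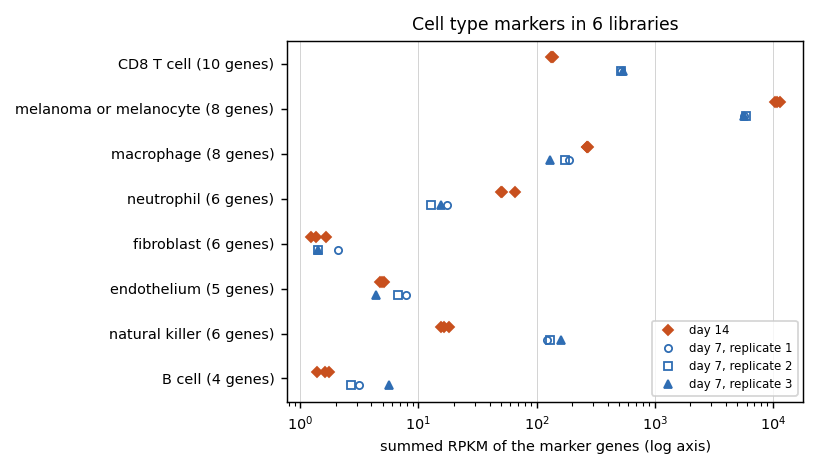
Summed RPKM of cell type marker genes (log axis), with day 14 libraries as diamonds above and day 7 libraries as circles, squares and triangles below. CD8 T cell markers sit at 133 to 139 RPKM on day 14 and 517 to 538 on day 7, and melanocyte genes at 10500 to 11500 on day 14 and 5710 to 5930 on day 7.

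Of the 34 members, 26 passed the filter. Of these, 10 rose on day 14, none fell and 16 gave no call, against 6.43% higher and 3.6% lower of all genes tested. The list was not blind to these data, so such shares describe it and do not test it. The 10 are all targets of HIF, other targets gave no call, and so did the tested genes of the HIF chains and oxygen sensors. Vegfa, Adm, Car9, Bnip3, Pdk1, Mxi1, Ero1l, Kdm3a, P4ha2 and Plod1 rose, by between 1.77-fold for Kdm3a and 5.65-fold for Car9. At an unadjusted p under 0.05, 15 members were higher and 1 lower, against 14.8% and 6.9% of all genes tested. By limma-voom on recovered reads 11 were higher and 1 lower, against 10.7% and 8.26% of all genes. The median log2 fold change of the 26 was 0.84, beside 0.16 for all genes tested. Every day 14 library lay above every day 7 library in 20 of the 26 and below in 1, against 31.6% and 17.8% of all genes tested. Of the 10 calls, 6 held without day 7 replicate 3 (4.08% of all genes were then called higher), and 4, those of Vegfa, Car9, Mxi1 and Ero1l, with replicate 3 as the sole day 7 sample (2.66%). With a lone day 7 sample the residual spread comes from the day 14 libraries alone, so these calls do not test the spread of day 7. With weights modelled on mean log2(RPKM + 1), 7 members were called higher (3.81%). Vegfa, Car9, Mxi1 and Ero1l were called in all 16 alternatives.

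**Figure D2:**
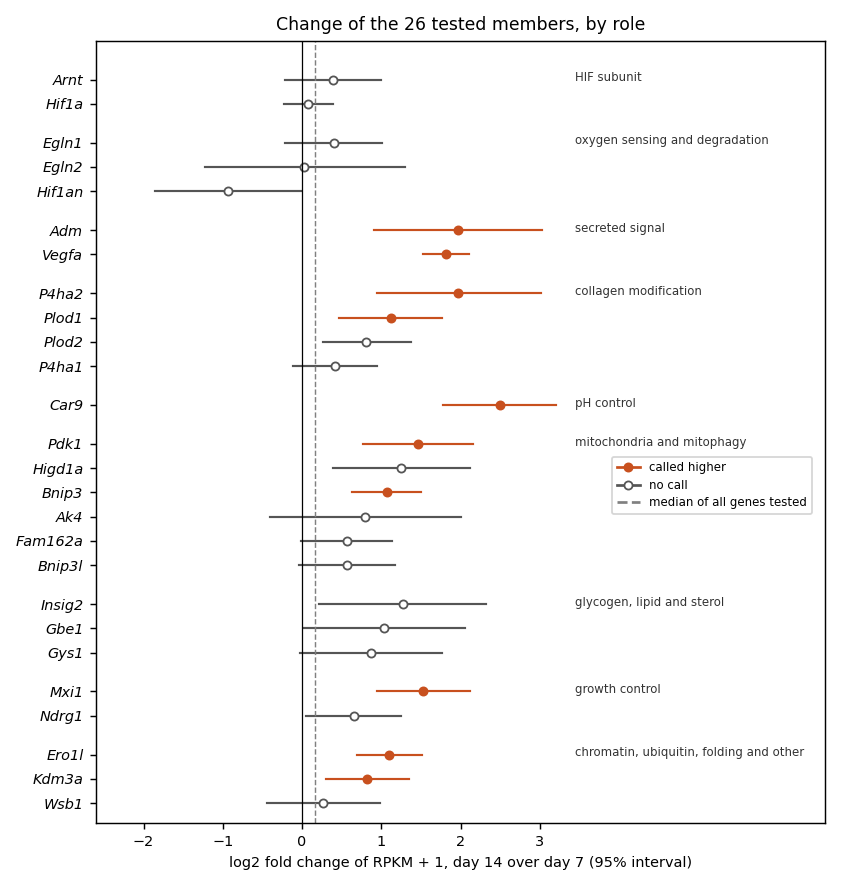
Log2 fold change of RPKM + 1, day 14 over day 7, with 95% intervals for the 26 tested members, grouped by role. Filled orange points are the 10 members that rose, open points gave no call, and the dashed line is the median of all genes tested (0.16).

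The genes of the HIF chains gave no call. Hif1a, the main oxygen-regulated chain (plus strand of chromosome 12, 73901375 to 73947530 of GRCm38), stood at 71.5, 78.5 and 72.4 RPKM on day 14 and at 78.8, 80.6 and 61.6 RPKM on day 7. The days overlapped, and the log2 fold change was 0.08 (95% interval -0.23 to 0.39, limma adjusted p = 0.83), which turned to -0.11 under median-of-ratios scaling and to -0.10 without day 7 replicate 3. On day 14, Fam162a, Vegfa and Bnip3 were above it in every library. Arnt, its beta partner, stood at 13.2, 14.4 and 12.0 RPKM on day 14 and at 11.3, 10.1 and 8.92 RPKM on day 7. All day 14 libraries were above all day 7 libraries for Arnt, but the difference was no call (log2 fold change 0.39, interval -0.21 to 1.00, adjusted p = 0.481). Epas1, the alternative alpha chain of HIF-2, was too low to test, at 1.04, 0.900 and 0.382 RPKM on day 14 and 0.189, 0.121 and 0.116 RPKM on day 7. Its level was 0.528% to 1.46% of that of Hif1a on day 14 and 0.151% to 0.240% on day 7.

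The oxygen sensors and the degradation machinery included no call in either direction. Egln1, the prolyl hydroxylase PHD2 that sets the oxygen response in most cells, stood at 27.5, 24.6 and 27.5 RPKM on day 14 and at 19.1, 17.0 and 21.8 RPKM on day 7. Its days did not overlap, with a log2 fold change of 0.40 (interval -0.21 to 1.01, adjusted p = 0.476). Egln2, the related enzyme PHD1, stood at 7.06, 7.19 and 7.78 RPKM on day 14. On day 7 it was at 19.2 and 19.0 RPKM in replicates 1 and 2 and at 2.30 in replicate 3, so that the day 14 libraries lay between the day 7 samples. Its log2 fold change of 0.03 (interval -1.23 to 1.30) became -1.27 without day 7 replicate 3, 1.34 with it alone and -0.13 under median-of-ratios scaling. Hif1an, which encodes the asparaginyl hydroxylase FIH, was the 1 tested member with every day 14 library below day 7, at 3.98, 5.25 and 4.82 RPKM on day 14 and 11.9, 11.3 and 8.26 RPKM on day 7. Its log2 fold change was -0.93 (interval -1.86 to -0.01) with an adjusted p of 0.226, and it was called lower by limma-voom on recovered reads (-1.10, adjusted p = 0.0157).

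Egln3 and Vhl were under the filter. Egln3, the prolyl hydroxylase PHD3 whose gene is itself a HIF target, was at 3.50, 4.96 and 2.79 RPKM on day 14, and on day 7 it had no reads in replicates 1 and 2 and 0.461 RPKM in replicate 3. All day 14 libraries were above all day 7 libraries. Vhl, the substrate receptor of the ubiquitin ligase, was at 2.96, 5.37 and 4.06 RPKM on day 14 and 1.00, 0.932 and 2.56 RPKM on day 7, again without overlap. With the filter lowered to 5 CPM, where 2.9% of genes were called higher, neither was called (log2 fold change 1.95 and limma adjusted p = 0.212 for Egln3, 0.93 and 0.611 for Vhl).

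**Figure D3:**
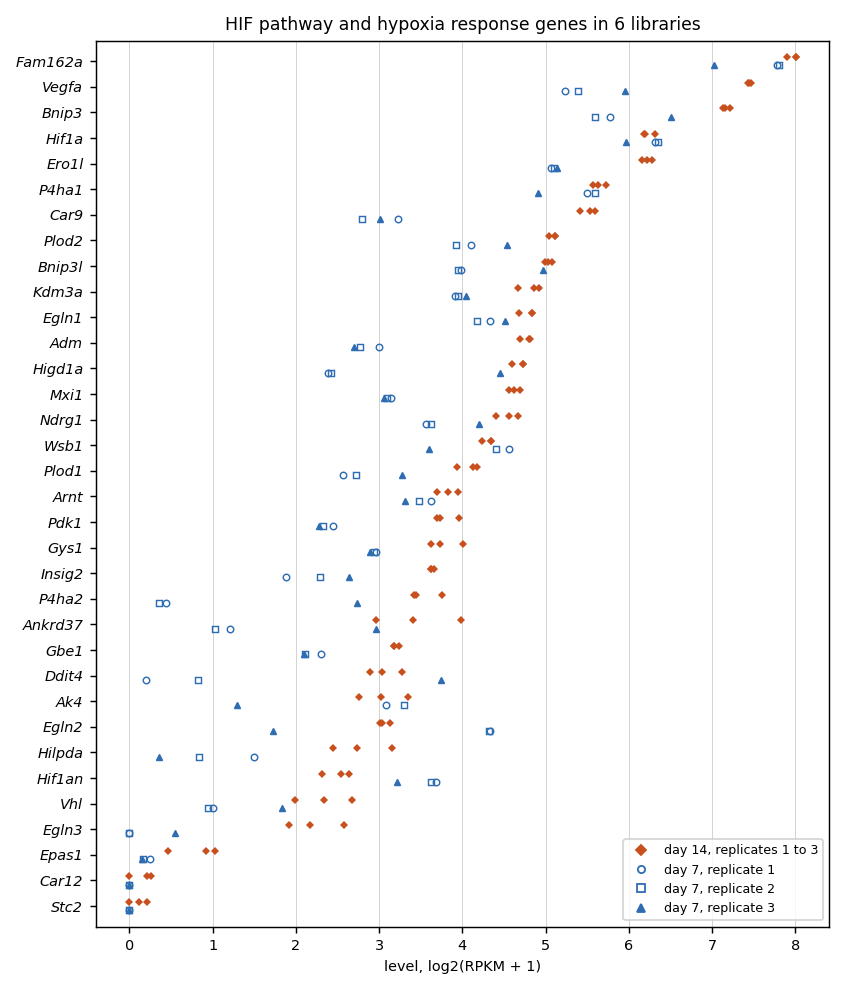
Level of the 34 members in each library as log2(RPKM + 1), ordered by the day 14 mean, with day 14 libraries as diamonds and day 7 libraries as circles, squares and triangles. Fam162a (239 to 257 RPKM) and Vegfa (172 to 177) lead on day 14, and day 7 replicate 3 stands away from replicates 1 and 2 for Egln2, Higd1a, Ddit4 and P4ha2.

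The 2 tested genes of secreted signals both rose. Vegfa, the growth factor that drives vessel sprouting (minus strand of chromosome 17, 46016993 to 46032369), stood at 173, 172 and 177 RPKM on day 14 and at 36.5, 41.1 and 60.9 RPKM on day 7. Every day 14 library was more than the highest day 7 library, replicate 3. Its mean was 174 ± 2.23 RPKM on day 14 (SD, n = 3) and 49.9 ± 15.7 on day 7 (SD, n = 2), a log2 fold change of 1.82 (SE 0.14, limma adjusted p = 4.49e-10). This SE and p draw on variance modelled across genes, not on the spread of Vegfa alone. Without precision weights the limma adjusted p was 0.00227, and by limma-voom it was 4.29e-05.

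Adm encodes adrenomedullin, a peptide that widens vessels (plus strand of chromosome 7, 110627661 to 110629820). It was at 26.8, 24.8 and 27.0 RPKM on day 14 and at 6.98, 5.84 and 5.49 RPKM on day 7, with the libraries of each day close together. The log2 fold change of 1.97 (SE 0.52, limma adjusted p = 0.0124) lost its call without day 7 replicate 3 (1.88, adjusted p = 0.153), with it alone (2.07, adjusted p = 0.132) and by limma-voom (adjusted p = 0.0688). Stc2, the gene of the secreted glycoprotein stanniocalcin, had no reads on day 7 and at most 0.154 RPKM on day 14.

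Car9 had the highest fold change of the members tested. It encodes a carbonic anhydrase on the cell surface that removes acid from glycolytic cells (plus strand of chromosome 4, 43506966 to 43513729). It was at 47.5, 45.3 and 41.7 RPKM on day 14 and at 8.39, 5.92 and 7.05 RPKM on day 7, with no overlap. Its difference was 2.50 on the log2 scale (SE 0.35, limma adjusted p = 1.09e-05). Car12, a second membrane carbonic anhydrase, had no reads on day 7 and 0.197, 0 and 0.158 RPKM on day 14.

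Of the 4 collagen-modifying enzymes, P4ha2 and Plod1 rose. P4ha2, a catalytic chain of prolyl 4-hydroxylase (plus strand of chromosome 11, 54100095 to 54131665), was at 9.84, 9.74 and 12.6 RPKM on day 14. On day 7 it was nearly absent in replicates 1 and 2, at 0.362 and 0.275 RPKM, and at 5.65 in replicate 3. Its log2 fold change of 1.97 (SE 0.50, limma adjusted p = 0.00987) was 3.14 (adjusted p = 0.00358) without day 7 replicate 3 and 0.81 (adjusted p = 0.659) with it alone, and limma-voom gave 3.40 (adjusted p = 0.0544). P4ha1, the more abundant catalytic chain, was at 48.4, 52.0 and 46.3 RPKM on day 14 and at 44.2, 47.2 and 29.0 RPKM on day 7. Its days overlapped and gave no call (log2 fold change 0.41, interval -0.11 to 0.94, adjusted p = 0.369). P4ha2 amounted to 18.7% to 27.1% of P4ha1 on day 14, and to 0.819%, 0.583% and 19.5% in the 3 day 7 libraries.

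Plod1, a lysyl hydroxylase that prepares collagen for cross-links (minus strand of chromosome 4, 147909753 to 147936767), was at 17.0, 14.3 and 16.6 RPKM on day 14 and at 4.93, 5.62 and 8.70 RPKM on day 7. It rose with a log2 fold change of 1.12 (SE 0.31, limma adjusted p = 0.0207), and without day 7 replicate 3 the change was 1.43 with an adjusted p of 0.0542. With replicate 3 alone it was 0.80 (adjusted p = 0.418), and under median-of-ratios scaling 0.95 (adjusted p = 0.0709). Plod2, which directs cross-links in stiff matrix, was at 33.5, 33.6 and 32.0 RPKM on day 14 and at 16.1, 14.2 and 22.1 RPKM on day 7. All its day 14 libraries lay above day 7. It just missed the threshold (log2 fold change 0.81, interval 0.26 to 1.37, adjusted p = 0.0537). It passed without day 7 replicate 1 (0.86, limma adjusted p = 0.0422) and by limma-voom (0.88, adjusted p = 0.00813). It was farther from a call under median-of-ratios scaling (0.63, limma adjusted p = 0.178) and with the filter at 5 CPM (limma adjusted p = 0.0808). The change of Plod2 was 1.07 without day 7 replicate 3 and 0.55 with it alone. The collagen gene Col1a1, read here as a fibroblast marker, was at 0.228 to 0.458 RPKM on day 14 and 0.0934 to 1.30 RPKM on day 7.

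**Figure D4:**
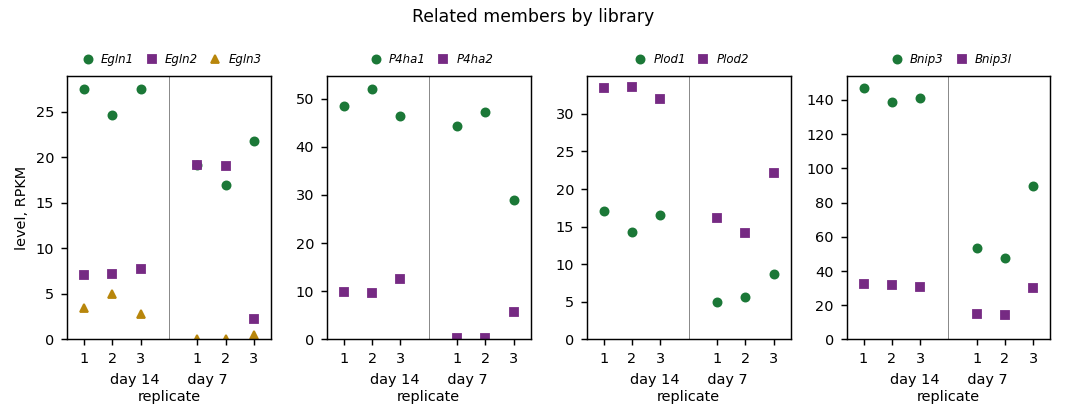
RPKM of related members in each library, with day 14 on the left and day 7 on the right of each panel. Egln1 was at 24.6 to 27.5 RPKM on day 14 and 17.0 to 21.8 on day 7, and Egln2, P4ha2 and Bnip3l differ between day 7 replicate 3 and day 7 replicates 1 and 2.

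Of 6 mitochondrial genes, Bnip3 and Pdk1 rose. Bnip3 encodes a receptor on the outer mitochondrial membrane that sends mitochondria to autophagy (minus strand of chromosome 7, 138890836 to 138909519). It was at 147, 139 and 141 RPKM on day 14 and at 53.5, 47.4 and 89.6 RPKM on day 7, without overlap. The difference was 1.07 on the log2 scale (SE 0.21, limma adjusted p = 0.000967), and 0.66 with an adjusted p of 0.217 when replicate 3 alone stood for day 7. Exons of Bnip3 share 22.3% of its length with the opposite-strand model Gm45507. How strand was handled in counting is not given in the sources used here, so the reads of such a pair cannot be told apart. Car9 and Mxi1 have smaller overlaps of this kind, 9.3% and 3.5% of their length. Among members that did not rise, Ankrd37 shares 22.7% with Lrp2bp and 3.7% with Ufsp2. Gys1 shares 6.5%, Plod2 6.4%, Hif1a 5.6% and Egln2 0.4%, and Ndrg1 shares 6.4% and 2.1% with separate models.

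Bnip3l, the close relative of Bnip3 also called Nix, was at 32.7, 31.7 and 30.9 RPKM on day 14 and at 14.8, 14.5 and 30.4 RPKM on day 7. Replicate 3 of day 7 reached almost the day 14 level, and no call was made (log2 fold change 0.57, interval -0.04 to 1.17, adjusted p = 0.268). Bnip3l amounted to 21.9% to 22.9% of Bnip3 on day 14 and to 27.7% to 33.9% on day 7.

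Pdk1 encodes a kinase that inhibits pyruvate dehydrogenase and so keeps pyruvate from the citric acid cycle (plus strand of chromosome 2, 71873224 to 71903858). It was at 12.0, 12.3 and 14.5 RPKM on day 14 and at 4.45, 4.00 and 3.86 RPKM on day 7, and the day 7 libraries were alike. Its difference was 1.46 on the log2 scale (SE 0.34, limma adjusted p = 0.00449), with a call that ended without day 7 replicate 3 (1.41, adjusted p = 0.0901) and with it alone (1.52, adjusted p = 0.0795).

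Fam162a, a mitochondrial protein linked to cell death in low oxygen, was the most abundant member at 239, 256 and 257 RPKM on day 14 and 219, 223 and 129 RPKM on day 7. It gave no call (log2 fold change 0.57, interval -0.01 to 1.14, adjusted p = 0.237). Higd1a, an inner membrane protein induced by low oxygen, was at 23.2, 25.4 and 25.5 RPKM on day 14, and at 4.21 and 4.38 in day 7 replicates 1 and 2 but 21.0 in replicate 3. Its log2 fold change of 1.25 (interval 0.39 to 2.12, adjusted p = 0.0586) was called without day 7 replicate 3 (2.28, adjusted p = 0.00899) and without day 14 replicate 1 (1.30, adjusted p = 0.0446), and was 0.23 with day 7 replicate 3 alone. Exons of Higd1a share 22.5% of its length with an opposite-strand model. Ak4, a mitochondrial adenylate kinase, overlapped between the days, at 5.79, 9.22 and 7.14 RPKM on day 14 and 7.51, 8.83 and 1.45 RPKM on day 7 (log2 fold change 0.80, interval -0.41 to 2.01, -0.15 without day 7 replicate 3 and 1.75 with it alone).

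The 4 genes of glycogen, lipid and sterol handling all lay higher on every day 14 library than on any day 7 library. Across all genes tested, 31.6% did so. None of the 3 tested here was called. For both of the next genes the libraries of a day were close together. Gys1, the glycogen synthase of most tissues, was at 15.1, 12.3 and 11.3 RPKM on day 14 and 6.81, 6.66 and 6.40 RPKM on day 7 (log2 fold change 0.87, interval -0.03 to 1.77, adjusted p = 0.245). Gbe1, which adds branches to glycogen, was at 8.44, 8.05 and 8.03 RPKM on day 14 and 3.94, 3.33 and 3.27 RPKM on day 7 (1.04, interval 0.03 to 2.06, adjusted p = 0.209). Insig2, which holds back sterol synthesis, was at 11.7, 11.3 and 11.3 RPKM on day 14 and 2.67, 3.90 and 5.21 RPKM on day 7 (1.27, interval 0.21 to 2.32, adjusted p = 0.127). Hilpda, a small protein that protects lipid droplets from breakdown, was under the filter at 4.46, 7.94 and 5.65 RPKM on day 14 and 1.82, 0.779 and 0.278 RPKM on day 7.

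Among the genes that restrain growth, Mxi1 rose. It encodes a partner of MAX that opposes MYC (plus strand of chromosome 19, 53310506 to 53375810), and was at 22.6, 23.5 and 24.8 RPKM on day 14 and at 7.82, 7.57 and 7.31 RPKM on day 7. The libraries of each day were close to one another, including day 7 replicate 3, with a log2 fold change of 1.53 (SE 0.29, limma adjusted p = 0.000513). Ndrg1, a stress-induced cytoplasmic protein, was at 20.1, 24.4 and 22.7 RPKM on day 14 and 10.8, 11.3 and 17.3 RPKM on day 7, without overlap and without a call (0.65, interval 0.05 to 1.25, adjusted p = 0.181). Ddit4, the mTORC1 inhibitor also called REDD1, was under the filter at 7.19, 8.69 and 6.42 RPKM on day 14. On day 7 it was at 0.149 and 0.765 RPKM in replicates 1 and 2 and at 12.4 in replicate 3, the highest value of the 6.

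Of the remaining genes, Ero1l and Kdm3a rose. Ero1l, the endoplasmic reticulum oxidase that drives disulfide formation, was at 73.2, 76.4 and 70.3 RPKM on day 14 and at 32.5, 33.4 and 34.2 RPKM on day 7. The days did not overlap, with a log2 fold change of 1.10 (SE 0.20, limma adjusted p = 0.00033). Kdm3a, a histone H3 lysine 9 demethylase (minus strand of chromosome 6, 71588972 to 71632990), was at 28.0, 29.2 and 24.4 RPKM on day 14 and at 14.1, 14.5 and 15.5 RPKM on day 7. Its log2 fold change of 0.82 (SE 0.26, limma adjusted p = 0.0393) was no call without day 7 replicate 3 (0.88, adjusted p = 0.178), without day 14 replicate 2 (0.77, adjusted p = 0.0642) or under median-of-ratios scaling (0.65, adjusted p = 0.148).

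Wsb1, a substrate receptor of a ubiquitin ligase, overlapped between the days at 19.3, 17.9 and 19.3 RPKM on day 14 and 22.6, 20.1 and 11.2 RPKM on day 7. Its log2 fold change was 0.27 (interval -0.44 to 0.98, adjusted p = 0.719) and became -0.17 without day 7 replicate 3. Ankrd37, a small ankyrin repeat protein, was under the filter at 14.8, 6.78 and 9.61 RPKM on day 14 and 1.30, 1.05 and 6.77 RPKM on day 7. Day 7 replicate 3 of Ankrd37 lay just under the lowest day 14 library.

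Genes of the same pathway outside the list were read for comparison. Of 11 genes of the VHL ligase and HIF coactivators found in the files, 5 were tested and none was called in either direction, with a median log2 fold change of -0.22. The log2 fold changes were -0.30 for Cul2 and -0.41 for Rbx1, parts of the ligase, -0.19 for Ep300 and -0.22 for Crebbp, coactivators that acetylate histones, and 0.69 for Cited2, which competes with HIF for them. Hif3a, the third alpha chain, had no reads in any library.

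Of 29 other HIF targets, 22 were tested, 15 rose and none fell, against 6.43% and 3.6% of all genes tested. Their median log2 fold change was 0.61, beside 0.16 for all genes tested. This list, too, was chosen with earlier results of these data known. Some calls were small shifts, with log2 fold changes of 0.29 for Tpi1, 0.38 for Aldoa, 0.39 for Gapdh and 0.46 for Pgk1. The largest was 2.13 for Slc2a1. Calls of these genes under median-of-ratios scaling were not looked up. That scaling lowered the number of all genes called higher from 430 to 199. With the filter lowered to 5 CPM, Gapdh, Pgam1, Pfkfb3 and Bhlhe40 lost their call (limma adjusted p = 0.0598, 0.082, 0.0839 and 0.0896). The 6 with the smallest p were Eno1, Pkm, Hk2, Hmox1, Ldha and Tfrc. Hk2, the inducible hexokinase, was at 73.3, 81.6 and 79.2 RPKM on day 14 and 31.6, 32.1 and 29.9 RPKM on day 7 (log2 fold change 1.31, limma adjusted p = 2.78e-06). Eno1 and Pkm, enzymes of the lower part of glycolysis, had smaller log2 fold changes of 0.60 and 0.52, and Ldha, which makes lactate, had 0.64. Hmox1, which breaks down haem, and Tfrc, the transferrin receptor, had log2 fold changes of 1.56 and 1.05. Slc2a3, a glucose transporter of neurons and leukocytes, was lower in every day 14 library, at 3.55, 3.24 and 4.13 RPKM on day 14 and 6.37, 6.20 and 10.1 RPKM on day 7, without a call (-0.96, interval -1.93 to 0.01). Slc2a1, another glucose transporter, rose (2.13, limma adjusted p = 0.00112). Pdgfb, under the filter, was also lower in every day 14 library, with means of 0.546 RPKM on day 14 and 2.99 RPKM on day 7. Slc2a3, Slc2a1, Pdgfb and the genes of small shift are named after their values were seen.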

How the data were processed

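Total RNA of 6 samples went into stranded mRNA libraries with a UID step, read from both ends, per the labels' protocols. Trimmomatic 0.36, Subread 1.5.1 with featureCounts, and GRCm38 appear in the submitters' processing notes. The aligner, UID treatment and strand rule were not given in the sources used here. The authors deposited RPKM, and gene lengths and positions come per the file headers. Value times length gave whole reads in every gene within a tolerance of 0.001. Among genes with few reads, 75.6% to 77.6% held an even number on day 14 and 84.0% to 87.7% on day 7.

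From these values log2(RPKM + 1) was computed (pseudocount 1), and limma 3.58.1 (R 4.3.3) compared the days in all genes averaging at least 20 CPM. Each day had precision weights read off a loess curve of variance against mean CPM (span 0.3, floor 0.005), and the moderated test used the same mean as its trend. The mean on which variance is modelled was settled on simulated reads after the data were seen, and in every simulated run the share of false calls was above the nominal rate. The unit is RPKM, so a count model was only an alternative (limma-voom). The members and lists were chosen with earlier results of these data known. All members are accounted for, and of the other pathway genes up to 6 called in each direction with the smallest p are named. Alternatives changed scaling, filter, pseudocount, weights, test and libraries.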

Additional observations from a re-analysis of the deposited data

How the results depend on the processing

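No log2 fold change of a called member changed sign in any of the 16 alternatives. Of the 10 members that rose, 8 were called under median-of-ratios scaling and 8 with a filter of 5 CPM, 7 with a filter on RPKM and 10 with a pseudocount of 0.1. Plod1 and Kdm3a were no call under that scaling and both filters, and P4ha2 was none with the RPKM filter, without weights and by limma-voom. Without weights 13 members were higher and 1 lower (all genes 715 and 451), and with 6 libraries counted singly 17 and 1 (1174 and 583). By limma-voom 11 were higher and 1 lower (715 and 553), without Adm and P4ha2 and with Higd1a, Ndrg1 and Plod2 added. The lower one was Hif1an in each. With the replicate block on 6 libraries 15 were higher and 1 lower (860 and 534), a setting that counts near-identical libraries apart. Deviations of same-numbered libraries from their day means correlated at -0.014, -0.015 and -0.034, so no pairing by number was seen. These values cannot exclude such a pairing, because near-identical day 7 libraries could not show separate partners. Median-of-ratios scaling gave 199 genes higher, or 37.7% of calls against 64.1%. A further pair of alternatives was chosen after seeing the data. Weights modelled on mean log2(RPKM + 1) gave 7 members higher, without P4ha2, Plod1 and Kdm3a, and 255 genes higher, and day 7 replicate 3 alone gave 4 members higher, with 178 genes higher and 113 lower. Leaving out 1 library at a time gave 7 to 11 members higher and 0 lower, with 273 to 449 genes higher and 115 to 249 lower, and the lowest counts came without day 7 replicate 3, which leaves a lone day 7 sample weighted as in the full fit. Why counts moved was not tested. The day 7 spread limits what can be called, and members under the filter have no test in the fit used. With the filter at 5 CPM, 4 of them were tested and none was called. The limma adjusted p was 0.212 for Egln3, 0.611 for Vhl, 0.615 for Ddit4 and 0.441 for Ankrd37.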
